A study of Homo sapiens with 6 samples.

Results

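The genes described here are the expressed long intergenic non-coding RNA (lincRNA) genes of 2 Ewing sarcoma cell lines: the autosomal genes listed as lincRNA whose level was above 1 FPKM (fragments per kilobase of transcript, scaled to the mapped fragments of each library) in both untreated libraries. Of 6932 autosomal lincRNA genes in the deposited table, 182 passed (2.63%), against 10034 of 19427 autosomal protein-coding genes (51.6%) under the same rule. A673 and SKNMC, each an established Ewing sarcoma line, were treated for 6 h with 50 nM or 200 nM THZ1, a covalent inhibitor of the kinase CDK7, or with its solvent DMSO, and RNA was sequenced. Each of the 6 conditions had 1 library, so no difference below has a replicate check or a p-value, and every count compares libraries. FPKM are relative values within a library, and in these bulk samples fewer cells and less RNA per cell cannot be told apart.

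LincRNA genes are transcribed by RNA polymerase II from loci that carry no annotated protein; many of their RNAs are spliced and polyadenylated like mRNA, but they are usually less abundant and more restricted to one cell type. CDK7 is the kinase of the general transcription factor TFIIH; it phosphorylates the tail of RNA polymerase II as transcription starts and also activates other cell cycle kinases. Some lincRNAs are read from the same promoter region as a neighbouring coding gene, in the opposite direction, and others host small nucleolar RNAs (snoRNAs) in their introns or act in nuclear bodies.

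The rule used only the DMSO values. Another 65 lincRNA genes were above 1 FPKM in A673 alone and 147 in SKNMC alone, and 4562 were listed at 0 in both DMSO libraries. Just inside the threshold, RP11-53O19.3 was at 1.01 FPKM in A673 DMSO, and AC010987.5 and RP11-498C9.15 were at 1.02 and 1.03. Just outside it, CTD-2349P21.9 was at 0.998 and AP001372.2 at 0.979 FPKM in A673 DMSO, and RP11-229C3.2 was at 0.987 in SKNMC DMSO. The label lincRNA held for most members but not all: of 182 identifiers, 132 were found in the later annotation GENCODE 44, where 115 were lncRNA genes and 7 were still called lincRNA. In that annotation 6 of the 132 were protein-coding, among them LINC00116 (now MTLN, a mitochondrial micropeptide gene) and LINC00493 (SMIM26), and 4 were transcribed pseudogenes. The markers of Ewing sarcoma cells (NKX2-2, STEAP1, CCND1, PRKCB, FLI1, BCL11B, LIPI and JAK1) were detected in all 6 libraries, with summed levels of 557 to 1224 FPKM. The leukocyte gene PTPRC was at 7.90 to 13.1 FPKM in the 3 SKNMC libraries and at most 0.0291 in A673, while the epithelial gene EPCAM stayed at or below 0.826 and the hepatocyte gene ALB at or below 0.0429.

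Promoter windows of 8 members are printed because these members moved in contrasting ways. The first 3 were the members with the largest decreases in common to all 4 comparisons of THZ1 with DMSO, the next 3 were among those with the largest shared increases, and the last 2 start head to head with a coding gene whose response differed from theirs. Each window runs 5′ to 3′ on the gene's strand from 250 bases before the deposited start, 300 bases in all, in build hg19 (GRCh37), and capitals mark each CpG dinucleotide.
LINC00339 (chr1:22351430-22351729, plus strand): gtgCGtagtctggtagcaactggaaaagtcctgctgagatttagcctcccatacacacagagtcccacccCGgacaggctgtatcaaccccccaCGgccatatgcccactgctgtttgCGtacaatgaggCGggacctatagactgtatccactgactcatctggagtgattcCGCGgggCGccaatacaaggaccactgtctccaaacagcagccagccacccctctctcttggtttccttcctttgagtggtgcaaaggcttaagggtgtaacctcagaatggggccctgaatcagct
RP11-259N19.1 (chr2:75061065-75061364, minus strand): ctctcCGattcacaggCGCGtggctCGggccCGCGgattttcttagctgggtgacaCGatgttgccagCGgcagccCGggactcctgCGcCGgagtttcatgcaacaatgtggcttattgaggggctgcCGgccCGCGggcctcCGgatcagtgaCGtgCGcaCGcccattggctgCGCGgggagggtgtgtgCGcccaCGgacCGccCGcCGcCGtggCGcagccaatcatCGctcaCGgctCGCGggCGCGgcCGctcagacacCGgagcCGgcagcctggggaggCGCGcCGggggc
RP11-1094M14.11 (chr17:33894888-33895187, plus strand): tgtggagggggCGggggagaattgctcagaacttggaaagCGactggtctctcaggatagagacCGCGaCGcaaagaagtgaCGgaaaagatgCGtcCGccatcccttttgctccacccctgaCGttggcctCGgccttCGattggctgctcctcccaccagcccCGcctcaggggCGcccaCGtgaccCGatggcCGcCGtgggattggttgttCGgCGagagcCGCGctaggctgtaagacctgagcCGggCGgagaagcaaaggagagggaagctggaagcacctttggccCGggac
SNHG9 (chr16:2014709-2015008, plus strand): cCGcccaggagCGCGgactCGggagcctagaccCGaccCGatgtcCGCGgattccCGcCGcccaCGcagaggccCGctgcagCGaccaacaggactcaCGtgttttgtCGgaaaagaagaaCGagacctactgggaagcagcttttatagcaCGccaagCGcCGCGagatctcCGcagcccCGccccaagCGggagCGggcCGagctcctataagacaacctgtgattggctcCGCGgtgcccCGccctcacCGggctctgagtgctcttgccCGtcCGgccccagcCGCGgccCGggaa
SNORA76 (chr17:62223079-62223378, plus strand): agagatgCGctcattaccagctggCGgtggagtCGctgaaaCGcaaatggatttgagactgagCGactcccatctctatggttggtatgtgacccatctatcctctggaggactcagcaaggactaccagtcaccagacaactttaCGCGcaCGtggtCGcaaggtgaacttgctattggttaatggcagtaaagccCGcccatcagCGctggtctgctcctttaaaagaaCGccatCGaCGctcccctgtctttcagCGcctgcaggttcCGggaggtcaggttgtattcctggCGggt
MEG3 (chr14:101245496-101245795, plus strand): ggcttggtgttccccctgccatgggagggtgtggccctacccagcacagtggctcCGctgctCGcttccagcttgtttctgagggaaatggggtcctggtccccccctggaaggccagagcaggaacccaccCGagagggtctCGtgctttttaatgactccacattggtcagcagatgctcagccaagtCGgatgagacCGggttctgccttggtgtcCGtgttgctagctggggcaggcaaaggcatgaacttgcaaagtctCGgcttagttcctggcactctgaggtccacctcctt
RAB30-AS1 (chr11:82782857-82783156, plus strand): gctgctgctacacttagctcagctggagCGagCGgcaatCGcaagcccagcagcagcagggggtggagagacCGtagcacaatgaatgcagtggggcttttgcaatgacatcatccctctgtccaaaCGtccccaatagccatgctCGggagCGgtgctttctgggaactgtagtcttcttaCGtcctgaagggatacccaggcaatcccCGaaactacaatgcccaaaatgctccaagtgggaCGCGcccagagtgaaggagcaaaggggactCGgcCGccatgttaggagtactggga
CTA-217C2.1 (chr22:45559613-45559912, minus strand): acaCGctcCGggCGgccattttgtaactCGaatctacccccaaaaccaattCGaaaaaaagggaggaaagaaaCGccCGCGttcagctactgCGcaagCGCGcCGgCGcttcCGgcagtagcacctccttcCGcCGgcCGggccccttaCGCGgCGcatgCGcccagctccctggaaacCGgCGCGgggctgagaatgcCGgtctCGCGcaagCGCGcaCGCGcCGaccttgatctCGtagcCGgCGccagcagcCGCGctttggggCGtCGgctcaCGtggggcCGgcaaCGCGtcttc
CpG counts did not sort the 2 directions of response among the printed windows. Among the decreases, the windows held 8 CpG for LINC00339, 39 for RP11-259N19.1 and 24 for RP11-1094M14.11, and among the increases 34 for SNHG9, 17 for SNORA76 and 8 for MEG3. The median was 18.5 CpG for the 10 largest shared decreases (quartiles 5.75 and 25.5). For the 10 largest shared increases it was 9 (quartiles 5.25 and 19.25). Over all 182 members the median window held 10 CpG (quartiles 3 and 29), against 23 for the 10034 coding genes and 3 for the other 6750 autosomal lincRNA genes. Spearman's rho across the 182 members between CpG count and log2 fold change lay between -0.069 and 0.049 in the 4 comparisons with DMSO, a description over genes that share libraries.

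Letter strings were counted on both strands of every window: TATAAA, the core of the TATA box, and GGAAGGAA, 2 units of the GGAA repeat that the Ewing fusion protein EWS-FLI1 is known to bind. TATAAA was present in 26 of 182 member windows (14.3%), in 6.80% of coding windows, in 18.9% of those of the other autosomal lincRNA genes and in 12.9% of the windows of all 26359 autosomal genes. GGAAGGAA was present in 14 member windows (7.69%), against 3.46% of coding windows, 3.44% of the other lincRNA windows and 3.60% of all windows; among the printed windows only that of LINC00339 held it. A match is a letter string in this window and not a measured binding site.

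At baseline, the members were low and uneven. The median member level was 2.83 FPKM in A673 DMSO and 3.51 FPKM in SKNMC DMSO, against 15.6 and 16.0 FPKM for coding genes under the same rule. Together the members held 0.293% of the listed FPKM in A673 DMSO and 0.304% in SKNMC DMSO, and the 10 highest of each library gave 36.7% and 35.9% of the members' sum. The mean of both DMSO levels was above 10 FPKM in 33 members and at or under 2 FPKM in 52. DMSO levels of the 182 members correlated between the lines with Pearson's r = 0.84 on the log2(FPKM + 1) scale (Spearman's rho = 0.74), where the points share the annotation and, within a line, 1 library.

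The most abundant member was LINC00657 (NORAD), a cytoplasmic RNA that binds PUMILIO proteins, at 98.2 FPKM in A673 DMSO and 115 FPKM in SKNMC DMSO. Of the members, 8 were at least 2-fold higher in A673 DMSO and 18 in SKNMC DMSO (4.40% and 9.89%; over all 10216 lincRNA and coding genes the shares were 6.95% and 8.82%). The largest DMSO differences toward A673 included LINC01116 (12.7 FPKM in A673 against 1.23 in SKNMC), LINC00152 (75.2 against 22.3) and NEAT1 (44.9 against 13.0). Toward SKNMC they included AC027119.1 (1.41 FPKM in A673 against 11.3 in SKNMC), LINC00277 (1.36 against 8.98) and LINC00662 (2.03 against 9.49). These levels chose the members and are given as a description.

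By the main rule, the lincRNA genes were lowered about as often at the low dose as at the high dose. Coding genes were lowered more often at the high dose. A gene was counted as lowered when log2((FPKM + 1) / (DMSO FPKM + 1)) was -1 or less. In A673, 42 of 182 lincRNA genes (23.1%) were lowered at 50 nM and 39 (21.4%) at 200 nM, against 16.2% and 26.1% of coding genes. The shares over all 10216 genes were 16.3% at 50 nM and 26% at 200 nM. In SKNMC, 43 lincRNA genes (23.6%) were lowered at 50 nM and 35 (19.2%) at 200 nM, against 16.2% and 29.2% of coding genes, with 16.3% and 29% over all genes. Some settings raised the lincRNA share with dose in A673: 36.3% and 41.2% with 0.1 added in place of 1, and 36.7% and 40.8% with a minimum of 5 FPKM. Scaling by ribosomal protein genes did so in both lines (24.7% and 32.4% in A673, 33.5% and 36.3% in SKNMC). The other alternatives gave a lower share at 200 nM.

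**Figure D1:**
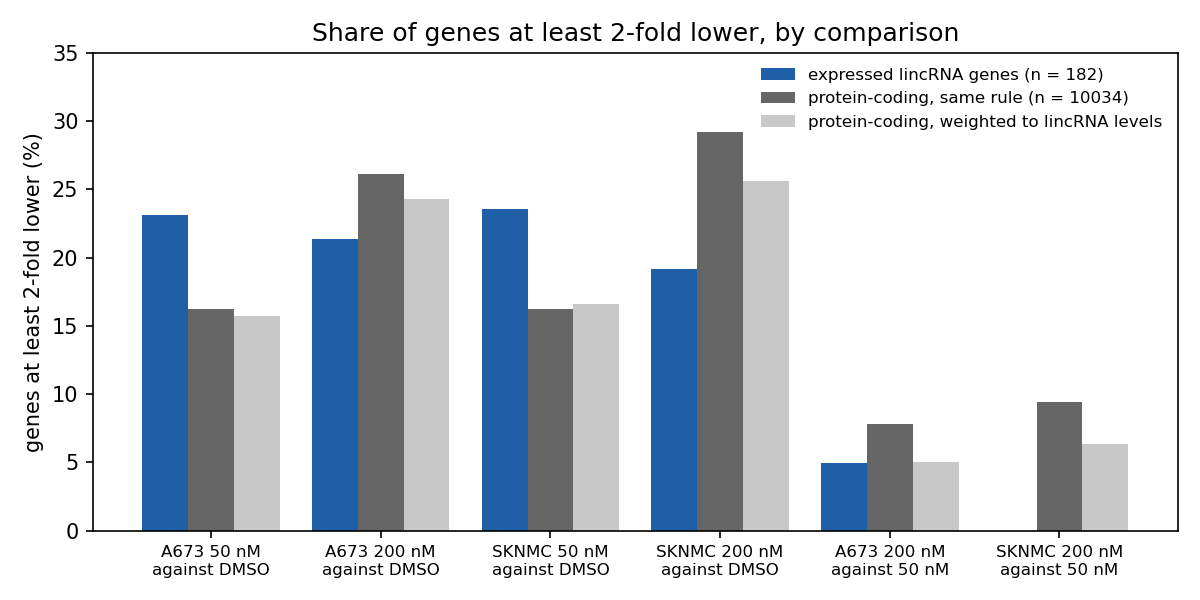
Bars give the percent of genes at least 2-fold lower on the log2(FPKM + 1) scale in each of 6 library comparisons, for lincRNA genes, coding genes under the same rule, and coding genes weighted to the lincRNA genes' DMSO levels. The lincRNA bar is above both coding bars in the 50 nM comparisons with DMSO (23.1% and 23.6%) and below both in the 200 nM comparisons with DMSO (21.4% and 19.2%); it is at 0 for SKNMC 200 nM against 50 nM.

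Medians by the main rule gave the same order of doses. The median log2 fold change of the members in A673 was -0.52 with the low dose and -0.48 with the high dose, and in SKNMC -0.49 and -0.45. The medians of coding genes were -0.27 and -0.41 in A673 and -0.31 and -0.58 in SKNMC. Since the members were chosen for DMSO levels above a threshold, every comparison with DMSO uses the values that chose them, and the part of this choice in the excess over coding genes at 50 nM was not tested. Member rules that do not use the same DMSO library admit genes at or under 1 FPKM, which cannot fall 2-fold once 1 is added. With members chosen on the other line's DMSO library, the same number were lowered in A673 at 50 nM, 42, but of 329. That share, 12.8%, was below the 14.6% of coding genes under the same rule. In SKNMC at 50 nM the rule gave 17.4% against 15.6%. The deficit of lincRNA genes in A673 at 200 nM turned into an excess with a pseudocount of 0.1 (41.2% against 31.1%) or a minimum of 5 FPKM (40.8% against 26.5%).

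The level of the gene entered the count. When coding genes were weighted to the lincRNA genes' distribution over 6 DMSO level bins, their shares lowered were 15.7% (A673, 50 nM), 24.3% (A673, 200 nM), 16.6% (SKNMC, 50 nM) and 25.6% (SKNMC, 200 nM). Members with a mean DMSO level of 5 to 10 FPKM had the highest shares: of 34, 16 (47.1%) and 18 (52.9%) were lowered in A673 at 50 and 200 nM, and 13 (38.2%) and 14 (41.2%) in SKNMC. The 1809 coding genes of that bin had 23.4%, 34.5%, 22.8% and 37.2%. Among the 52 members at 1 to 2 FPKM, which can hardly reach 2-fold after 1 is added, between 2 and 8 were lowered in the comparisons with DMSO (3.85% to 15.4%). The 294 coding genes of that bin had 6.46% to 12.2%.

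The step from 50 nM to 200 nM, which does not use the DMSO libraries, separated the gene types in SKNMC. From 50 to 200 nM, no lincRNA gene of 182 fell by 2-fold or more in SKNMC, against 947 of 10034 coding genes (9.44%). The share was 9.27% over all genes and 6.31% for coding genes weighted to the lincRNA genes' DMSO levels. That weighting does not match the 50 nM levels, whose lower quartile in SKNMC was 0.891 FPKM for members and 4.58 for coding genes. A gene under 1 FPKM at 50 nM cannot fall 2-fold once 1 is added. With a pseudocount of 0.1, 4 members (2.2%) fell, against 13.8% of coding genes. With a minimum of 5 FPKM it was 0 of 49 members, against 10.5%. In A673, 9 of 182 lincRNA genes (4.95%) and 7.79% of coding genes fell by 2-fold or more, with 7.74% over all genes. The weighted coding share in A673 was 5.01%, close to that of the members. The median step was -0.02 in A673 and 0.09 in SKNMC for members, and -0.03 and -0.16 for coding genes. In both lines 68 members (37.4%) were higher at 200 nM than at 50 nM by any amount, against 29.9% of coding genes, and 56 (30.8%) were lower in both, against 46.3%.

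**Figure D2:**
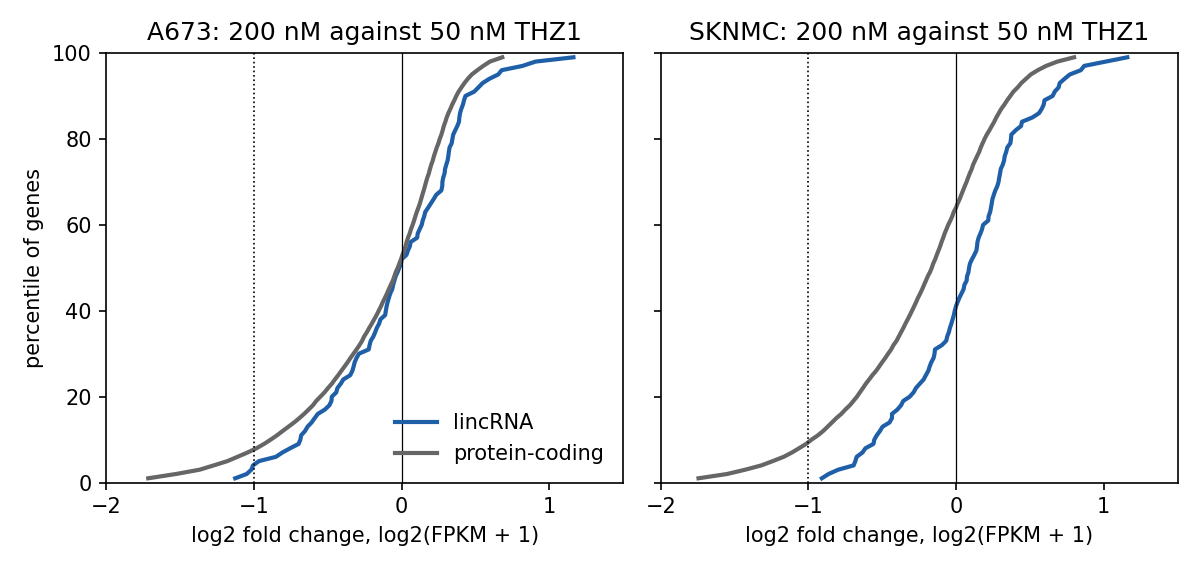
Cumulative curves give, for each line, the percentile of genes (y axis) at or below a log2 fold change of 200 nM against 50 nM THZ1 (x axis), for lincRNA and coding genes from the 1st to the 99th percentile; the dotted line marks a 2-fold decrease. The lincRNA curve lies to the right of the coding curve in both lines, with medians of 0.09 and -0.16 in SKNMC and of -0.02 and -0.03, nearly touching, in A673.

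The 9 members of the A673 step included MIR24-2, a host transcript of the miR-23a cluster (MIR23AHG in the later annotation), at 6.98, 3.66 and 1.32 FPKM in DMSO, 50 nM and 200 nM, and the coding-annotated NCBP2-AS2, at 28.0, 18.3 and 8.63 FPKM. In SKNMC 4 members (2.20%; 0.343% of all genes) rose 2-fold or more from 50 to 200 nM: NEAT1, MALAT1, MEG3 and RP11-309G3.3. In A673 the 3 that did (1.65%; 0.108% of all genes) were MALAT1, RP11-309G3.3 and RP3-430N8.10. These names were chosen after their values were seen.

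**Figure D3:**
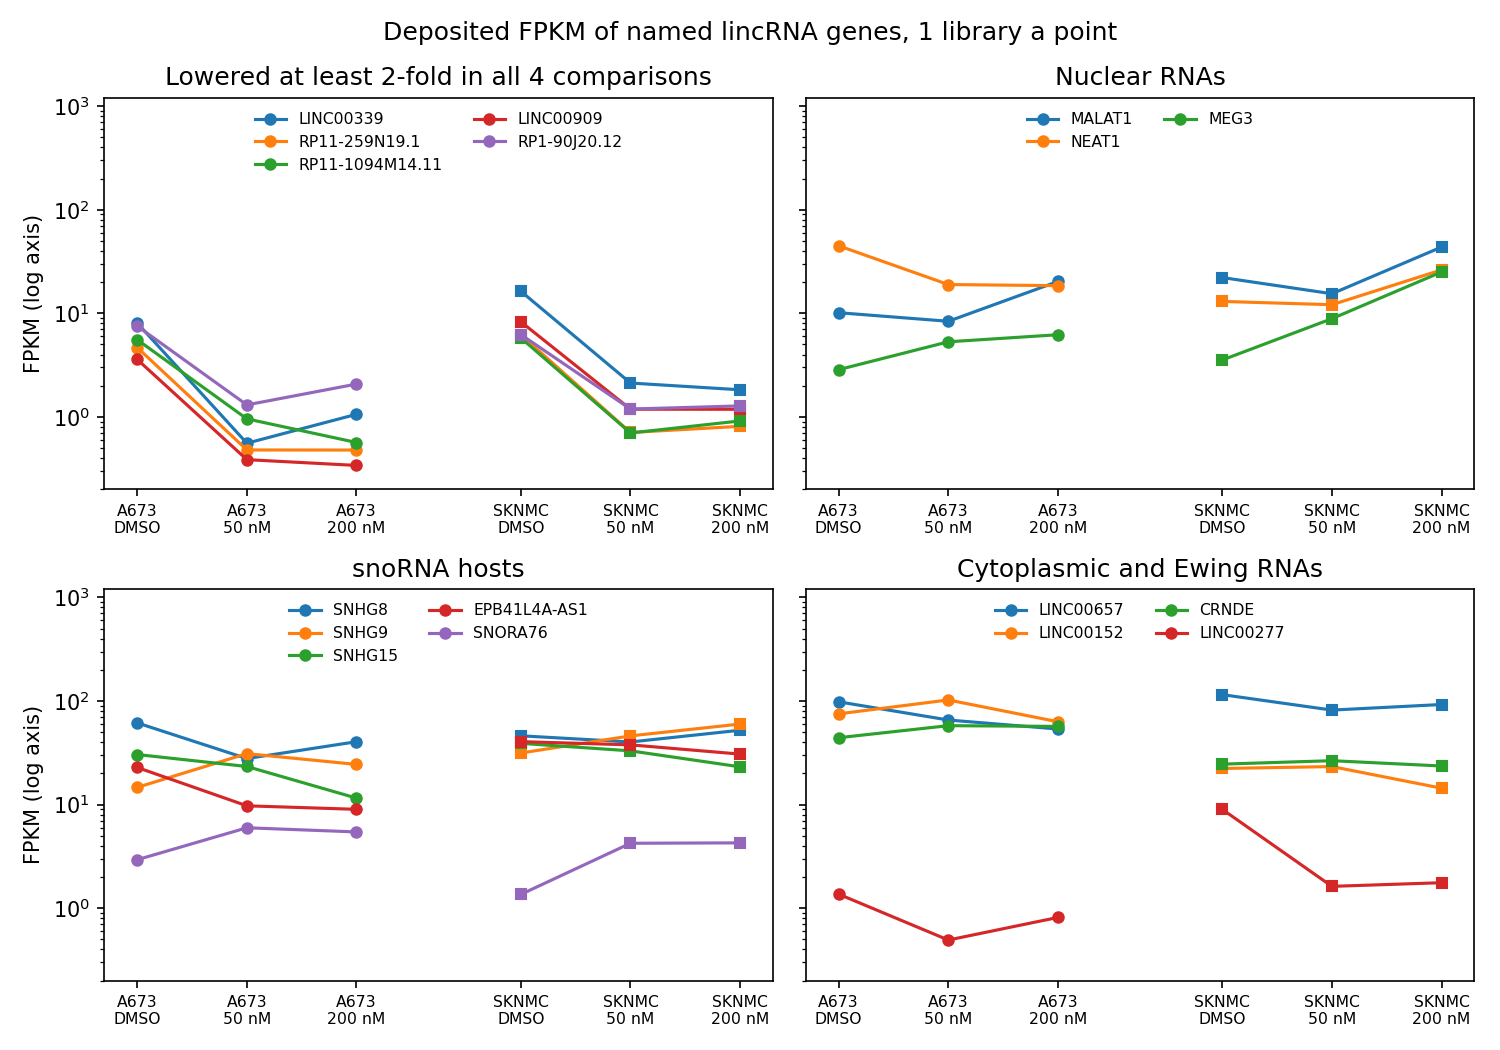
Deposited FPKM (log axis) of 17 named lincRNA genes in the 6 libraries, circles for A673 and squares for SKNMC, 1 library a point, joined within a line. The 5 genes of the first panel drop at 50 nM and stay low at 200 nM; MALAT1 in the second panel is at 8.38 and 15.5 FPKM at 50 nM and at 20.3 and 43.6 FPKM at 200 nM.

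The 3 nuclear-retained RNAs on the list differed among themselves. MALAT1, an abundant RNA of nuclear speckles, was at 10.1, 8.38 and 20.3 FPKM in A673 (DMSO, 50 nM and 200 nM) and at 22.1, 15.5 and 43.6 FPKM in SKNMC. Its level was highest at 200 nM in each line, 1.18 and 1.44 above 50 nM on the log2 scale, while its log2 change against DMSO, 0.94 and 0.95, missed the 2-fold threshold. NEAT1, the scaffold of paraspeckles and a known p53 target, was at 44.9, 18.96 and 18.5 FPKM in A673 and at 13.0, 12.1 and 26.2 FPKM in SKNMC. It fell by 1.20 and 1.23 on the log2 scale in A673 and was at -0.10 and 0.96 in SKNMC. MEG3, a maternally expressed RNA of the imprinted DLK1 region, was at 2.86, 5.31 and 6.21 FPKM in A673 and at 3.54, 8.88 and 25.1 FPKM in SKNMC. MEG3 was higher than DMSO in all 4 THZ1 libraries, past 2-fold in SKNMC (log2 fold changes 1.12 and 2.52) and at 0.71 and 0.90 in A673.

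Of the snoRNA host genes on the list, 4 were members, and they did not move together. SNHG9, which starts 98 bases from the ribosomal protein gene RPS2 in the opposite direction, was at 14.7, 31.0 and 24.4 FPKM in A673 and at 31.5, 46.1 and 59.9 FPKM in SKNMC. It rose 2-fold in A673 at 50 nM (log2 fold change 1.03), with 0.70, 0.54 and 0.91 in the others; RPS2 itself was between 0.29 and 0.74. SNHG8 fell past 2-fold in A673 at 50 nM alone, from 61.4 to 27.8 FPKM, and was also below DMSO at 200 nM, at 40.5 FPKM. In SKNMC it was at 46.1, 40.2 and 52.2 FPKM. SNHG15 fell past 2-fold in A673 at 200 nM, from 30.4 to 11.5 FPKM, and its other 3 values lay between -0.23 and -0.73 on the log2 scale. EPB41L4A-AS1 fell in A673 at both doses, from 22.8 to 9.73 and 8.996 FPKM, and was at 40.5, 37.7 and 30.7 FPKM in SKNMC. Each library was also scaled by the 75th percentile of the 10216 lincRNA and coding genes above 1 FPKM in both DMSO libraries. The A673 decreases of NEAT1, SNHG8, SNHG15 and EPB41L4A-AS1 then lay between -0.87 and -0.99, short of 2-fold. MALAT1 against DMSO at 200 nM was then at 1.28 in A673 and 1.49 in SKNMC, and NEAT1 in SKNMC at 1.49, past 2-fold. Scaled by ribosomal protein genes, the increases of SNHG9 in A673 and of MEG3 in SKNMC at 50 nM were 0.80 and 0.82.

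A further 3 members host snoRNAs by the later annotation only. SNORA76 (SNHG25, with SNORD104) was at 2.94, 5.97 and 5.44 FPKM in A673 and at 1.36, 4.23 and 4.27 FPKM in SKNMC, past 2-fold in SKNMC at both doses (log2 fold changes 1.15 and 1.16, or 0.88 and 0.69 when scaled by ribosomal protein genes). RP11-1094M14.11 (SNHG30, with SNORD7) went the other way, from 5.56 to 0.957 and 0.566 FPKM in A673 and from 5.78 to 0.699 and 0.914 FPKM in SKNMC. RP11-304L19.5 (SNHG19, with SNORD60) stayed between 26.5 and 36.2 FPKM in all 6 libraries. No RNA polymerase III transcript on the list was a member.

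None of the 3 members on the list of cytoplasmic regulatory RNAs passed 2-fold as deposited. The list was matched by symbol, and where in the cell these RNAs lie was not measured. Scaled by ribosomal protein genes, LINC00657 was at -1.21 in A673 at 200 nM and LINC00152 at -1.15 in SKNMC at 200 nM. LINC00657 was at 98.2, 65.5 and 53.7 FPKM in A673 and at 115, 81.7 and 92.5 FPKM in SKNMC. CRNDE, which starts 1672 bases from the homeobox gene IRX5, was at 44.2, 57.8 and 56.9 FPKM in A673 and at 24.6, 26.5 and 23.6 FPKM in SKNMC. LINC00152 (CYTOR) and MIR4435-1HG, a microRNA host gene, followed one another, at 75.2, 102 and 63.1 FPKM and at 40.6, 55.5 and 34.2 FPKM in A673. Their transcripts share 6657 bases at 99.1% identity, so reads of the 2 genes may not be separable. In all, 22 of the 132 members with a GENCODE transcript shared at least 300 bases at 98% identity or more with a transcript of another gene, LINC00339 among them (341 bases).

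LINC00277 (EWSAT1), an RNA known to be induced by the EWS-FLI1 fusion, was the only listed Ewing sarcoma lincRNA among the members. It was at 8.98, 1.62 and 1.76 FPKM in SKNMC, falling by 1.93 and 1.85 on the log2 scale, and at 1.36, 0.492 and 0.813 FPKM in A673, with log2 fold changes of -0.66 and -0.38. TP53TG1, named for its induction by p53, did not pass 2-fold: it was at 1.29, 1.69 and 2.44 FPKM in A673 and at 4.05, 3.67 and 4.85 FPKM in SKNMC.

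In all 4 comparisons with DMSO, 17 members (9.34%) were lowered at least 2-fold, close to the 8.87% of all 10216 genes. AC010987.5, just inside the threshold, was among the 17, with a smallest change of -1.01. A gene at its A673 DMSO level of 1.02 FPKM can fall no further once 1 is added. With each library scaled by the 75th percentile of these 10216 genes 8 of the 17 stayed lowered in all 4 comparisons. Scaled by ribosomal protein genes 17 did. That scaling moved the median of all genes down, by -0.21 to -0.49, so it could remove none of them. Among the 10 largest, RP5-935K16.1 (-0.95, A673 at 50 nM), LINC00116 (-0.97, A673 at 200 nM) and RP11-220I1.1 (-0.72, SKNMC at 200 nM) missed 2-fold once with the 75th percentile. The largest of these decreases was that of LINC00339, which lies on chromosome 1 at 22351680 to 22357716 on the plus strand. It was at 8.05, 0.557 and 1.06 FPKM in A673 and at 16.3, 2.12 and 1.83 FPKM in SKNMC, so that 6.92% to 13.2% of the DMSO level remained. RP11-259N19.1 (HK2-DT) starts 7 bases from HK2, the gene of the glycolytic enzyme hexokinase 2, on the other strand. It was at 4.67, 0.479 and 0.478 FPKM in A673 and at 6.20, 0.707 and 0.811 FPKM in SKNMC. HK2 was at 9.44, 9.07 and 6.49 FPKM and at 12.9, 14.1 and 6.79 FPKM, and passed 2-fold in no comparison.

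LINC00909 (ZNF407-AS1) was at 3.58, 0.386 and 0.340 FPKM in A673 and at 8.28, 1.19 and 1.18 FPKM in SKNMC. RP1-90J20.12 and RP11-220I1.1 kept 17.4% to 27.6% and 14.5% to 40.5% of their DMSO levels. LINC00116 was at 17.5, 5.07 and 6.59 FPKM in A673 and at 18.3, 5.85 and 3.66 FPKM in SKNMC. RP5-935K16.1 lies downstream of POLR2D, which encodes a subunit of RNA polymerase II, on the same strand, and both fell: the member by 1.14 to 1.65 on the log2 scale and POLR2D by 1.10 and 1.43 in A673 and 1.68 in SKNMC at 200 nM. CTD-2369P2.2 and RP11-10C24.1 complete the 10 largest shared decreases, with DMSO levels of 1.61 to 3.23 FPKM.

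Fewer members were higher. By any amount, 105 members (57.7%) were lower than DMSO in all 4 THZ1 libraries and 13 (7.14%) were higher, against 53.2% and 9.84% of all genes. Past 2-fold, 3 members rose in A673 at 50 nM (1.65%; 0.333% of all genes): SNHG9, RP11-252A24.7 and RP11-732M18.3. No member rose past 2-fold in A673 at 200 nM (0.0881% of all genes). In SKNMC at 50 nM MEG3, SNORA76 and RP11-225B17.2 rose (0.46% of all genes), and at 200 nM MEG3, SNORA76, RP11-439C15.4 and RP11-37B2.1 (2.20%; 0.343% of all genes). The remaining shared increases were below 2-fold in every comparison or past it once; among them LINC01003 was at 1.23, 2.25 and 1.83 FPKM in A673 and at 1.52, 2.14 and 3.10 FPKM in SKNMC.

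At 50 nM, 27 members were lowered in both lines, which is 64.3% of those lowered in A673 and 62.8% of those lowered in SKNMC. At 200 nM it was 24, or 61.5% and 68.6%. Among coding genes the shares in common were higher, 71.1% and 71.1% at 50 nM and 80% and 71.5% at 200 nM. Across the 182 members Pearson's r between the lines' log2 fold changes was 0.76 at 50 nM and 0.69 at 200 nM, where the points of a line share its DMSO library; for coding genes it was 0.84 and 0.82. The coding genes here were not matched to the members on level (median DMSO 15.6 and 16.0 FPKM, against 2.83 and 3.51). The part of level in these differences was not tested.

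**Figure D4:**
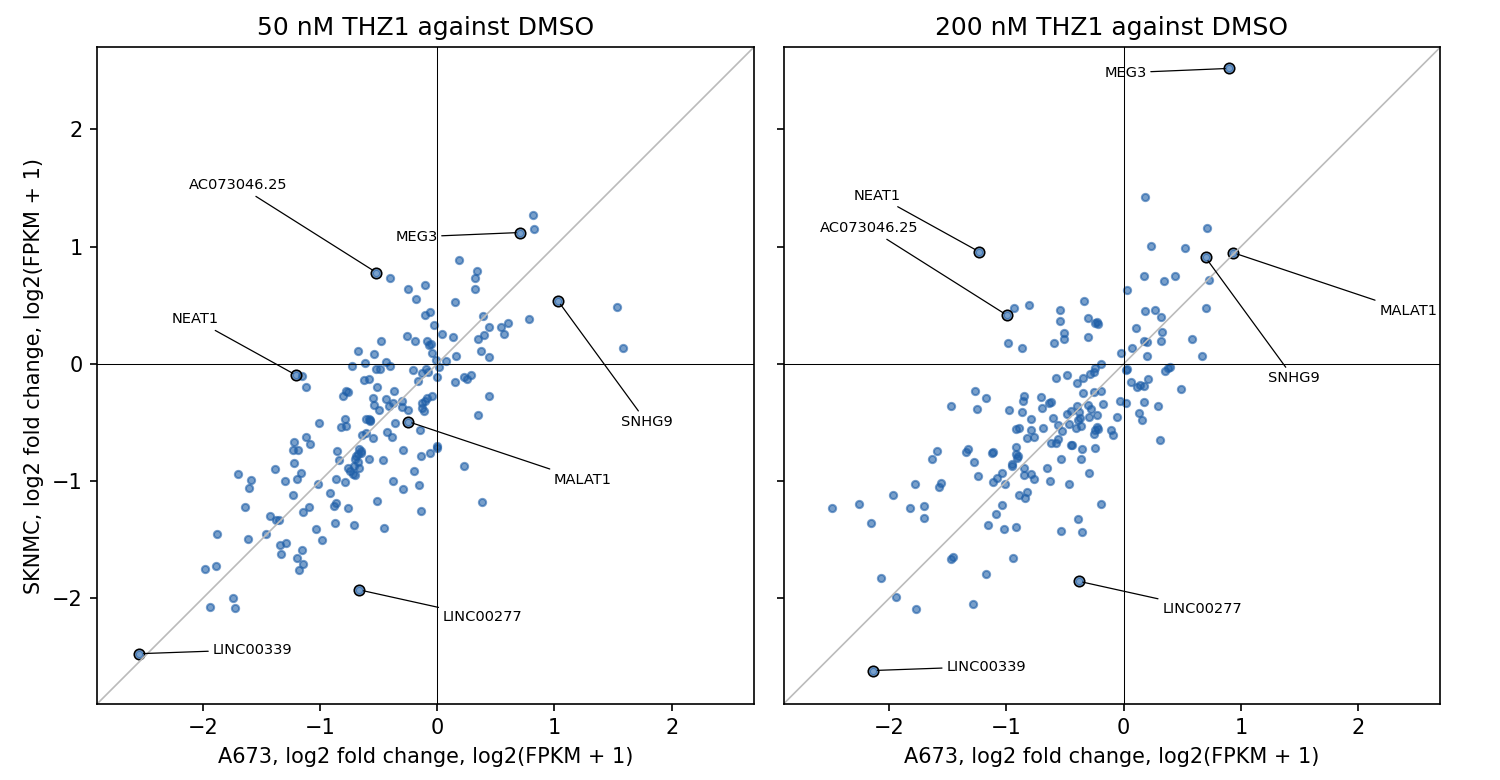
Each point is 1 of 182 lincRNA genes, with its log2 fold change of THZ1 against DMSO in A673 (x axis) and SKNMC (y axis) at 50 nM and 200 nM; the diagonal marks equal values. LINC00339 is lowest in both lines at 50 nM, and NEAT1 at 200 nM lies far above the diagonal (-1.23 in A673 and 0.96 in SKNMC).

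Members whose response differed most between the lines, averaged over both doses, were NEAT1, AC073046.25, RP11-379F4.7, RP11-932O9.10 and MEG3 toward lower values in A673. Toward lower values in SKNMC they were LINC00277, RP11-211G23.2, RP11-732M18.3, RP11-410L14.2 and RP11-339B21.15. The differences, A673 minus SKNMC, ranged from -1.65 to -1.01 and from 0.80 to 1.37 on the log2 scale and have no test. AC073046.25 shares 390 bases with TET3 and RP11-932O9.10 shares 733 with ARHGAP11B, both at 100% identity, so their reads may not be separable.

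By position, 69 members were isolated, 40 started within 5000 bases downstream of a coding gene on the same strand (tandem), 34 started head to head with a coding gene within 5000 bases (divergent), 22 overlapped a coding gene on the other strand and 17 on the same strand. The shares lowered by class ranged from 11.8% to 35.3%, and in the SKNMC step from 50 to 200 nM no class had a member past a 2-fold decrease. Of the 40 tandem members 30 (75%) and of the 17 same-strand members 10 (58.8%) were not found in the later annotation, against 2 of 34 divergent members (5.88%). The log2 fold changes of tandem members and their coding neighbour had r between 0.39 and 0.55 over 39 pairs in the 4 comparisons with DMSO. Their windows held a median of 2 CpG, against 29.5 for divergent members, and 27.5% held TATAAA.

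The 34 divergent members started a median of 351 bases from their coding partner, with the farthest 3863 bases away; PDCD6IP was the partner of 2 members. At 50 nM the member had the lower log2 fold change in 24 of 34 pairs in A673 and in 23 in SKNMC, and at 200 nM in 12 and 14. The medians of the members were -0.60 and -0.36 in A673 and -0.66 and -0.50 in SKNMC at 50 and 200 nM, and those of their partners -0.14 and -0.76, and -0.04 and -0.76. From 50 to 200 nM, 11 partners in A673 and 8 in SKNMC fell 2-fold or more (32.4% and 23.5%, against 7.79% and 9.44% of all coding genes), against 1 and 0 members (2.94% and 0, against 4.95% and 0 of all members). The divergent member had the lower value in this step in only 7 and 5 of 34 pairs, with medians of 0.12 and 0.18 for members and -0.46 and -0.55 for partners. For all members and all coding genes the median steps were -0.02 and -0.03 in A673, and 0.09 and -0.16 in SKNMC. Of 39 tandem partners 2 in A673 and 1 in SKNMC fell 2-fold or more. Of 16 partners overlapped on the other strand it was 2 and 0. Whether the contrast of doses is particular to divergent pairs was not tested. Across the 34 pairs, r between member and partner lay between -0.23 and 0.06 in the 4 comparisons with DMSO.

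**Figure D5:**
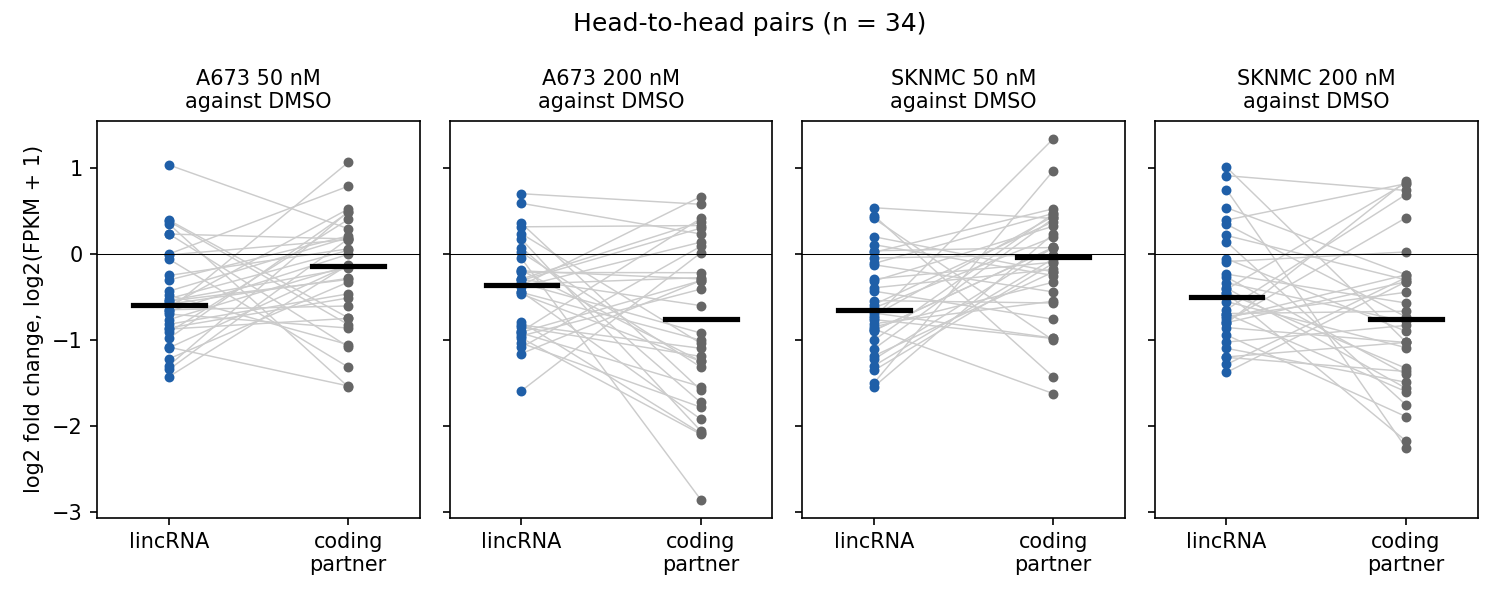
Log2 fold changes on the log2(FPKM + 1) scale of 34 divergent lincRNA genes and their coding partners in the 4 comparisons with DMSO; thin lines join a pair and thick bars are medians. At 50 nM the member medians (-0.60 and -0.66) are below the partner medians (-0.14 and -0.04), and at 200 nM they are above (-0.36 and -0.50 against -0.76 and -0.76).

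The pair RAB30-AS1 and RAB30, whose starts are 142 bases apart, had the widest gap in the step from 50 to 200 nM on the mean of both lines and was chosen for it. RAB30-AS1 was at 12.7, 5.92 and 11.0 FPKM in A673 and at 21.1, 6.83 and 8.66 FPKM in SKNMC. RAB30, a small GTPase of the Golgi, was at 5.17, 7.61 and 1.60 FPKM and at 6.01, 12.7 and 2.44 FPKM, with its highest level at 50 nM, where the member was lowest. CTA-217C2.1, 59 bases from the nuclear pore gene NUP50, was at 3.27, 0.684 and 1.41 FPKM and at 4.30, 0.819 and 1.48 FPKM, while NUP50 was at 34.6, 39.1 and 15.6 FPKM and at 33.2, 39.2 and 11.2 FPKM. NCBP2-AS2 went the other way in A673, with log2 fold changes of -0.58 and -1.59 beside -0.28 and 0.01 for NCBP2. In SKNMC the member was at -0.13 and -0.75 and NCBP2 at -0.44 and -0.24, so that the partner was the lower of the pair at 50 nM. These 3 pairs were chosen after their values were seen.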

How the data were processed

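Whole-transcriptome libraries of A673 and SKNMC cells after 6 h with DMSO, 50 nM or 200 nM THZ1 were used, 1 library per condition. Per the study's methods, the authors sequenced 100-bp paired-end reads, aligned them to hg19 with STAR and deposited FPKM per Ensembl gene; the supplementary methods name StringTie for quantification, the submitters' processing notes name Cufflinks, and whether strand was used is not given in the sources used here. The deposited table also holds the authors' log2 fold changes, which were not used. FPKM keep no counts, so depth is unknown and no interval or detection limit can be given.

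Changes are log2((FPKM + 1) / (FPKM + 1)), which understates changes of low genes, and a gene passed at 2-fold. Computations used Python 3.11.15 with pandas 2.3.3, and shared sequence was searched with BLAST+ 2.17.0 against GENCODE 44 transcripts. Of 182 identifiers 132 matched. Their median exonic length was 2513 bases, against 5498 for 9939 coding genes, and no comparison was matched on length. Scripts were tested on simulated data. Position classes came from deposited hg19 coordinates, and promoter windows from GRCh37. Genes were named by rule: the 15 highest members, the 10 largest shared decreases and increases, all listed role members, the 5 largest differences between lines in each direction (response and DMSO level), the 3 members on each side of the threshold, and partners of named members. Members and lists were chosen with earlier results of these data known. No test was run: each line had 1 library per condition, and the 2 lines were not taken as replicates of a dose. Alternatives were another pseudocount, other FPKM minima, other member rules, 2 scalings, leaving out same-strand neighbours and, added after seeing the data, keeping only members listed as lncRNA in GENCODE 44.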

Additional observations from a re-analysis of the deposited data

Results flagged for a closer look

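In all, 9 members moved in opposite directions in the 2 lines at both doses; 3 of them belong to the named genes and are given here, and with 1 library per condition the difference was not tested. AC073046.25 was at 4.40, 2.77 and 1.71 FPKM in A673 (DMSO, 50 nM and 200 nM) and at 2.77, 5.46 and 4.01 FPKM in SKNMC, a mean difference of log2 fold changes, A673 minus SKNMC, of -1.35. RP11-379F4.7 was at 2.95, 1.99 and 1.26 FPKM in A673 and at 1.56, 3.25 and 2.62 FPKM in SKNMC, a mean difference of -1.22. RP11-211G23.2 was at 1.36, 2.08 and 1.64 FPKM in A673 and at 1.44, 0.0774 and 0.749 FPKM in SKNMC, a mean difference of 1.1. When each library was scaled by its ribosomal protein genes, AC073046.25 at 200 nM in SKNMC was at -0.05 and RP11-211G23.2 at 200 nM in A673 at -0.05, so that the opposite signs did not hold for these at that dose.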

How the results depend on the processing

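No fit with the line as a block was made, since it would take the 2 lines as replicates of a dose. Depth is unknown, so the precision of single values, above all of members near 1 FPKM, cannot be given. Over 9 alternatives, 36 of 90 values stayed within the 95% interval of the reported one (binomial, Wilson, for shares; order statistics for medians), and 54 moved beyond it. These intervals count genes, serve only as a yardstick for movement and are no replicate error. The 36 medians among these values kept their sign; a share has none. Values below are in the order A673 50 nM, A673 200 nM, SKNMC 50 nM and SKNMC 200 nM against DMSO where all 4 moved.

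With a pseudocount of 0.1 the shares lowered were 36.3%, 41.2%, 41.2% and 33.5%, the steps from 50 to 200 nM 11% (A673) and 2.2% (SKNMC), and the moved medians -0.7 and -0.68 (A673) and -0.64 (SKNMC, 200 nM). With a minimum of 0.1 FPKM the shares were 6.33%, 6.05%, 9% and 7.03%, the A673 step 1.41% and the medians -0.15, -0.13, -0.23 and -0.14. With a minimum of 5 FPKM, moved shares were 36.7% and 40.8% in A673 and 26.5% in SKNMC at 200 nM, and medians -0.66, -0.86 and -0.6. With members chosen on the mean of 6 libraries, shares were 14.9% and 14.1% in A673 and 17.6% in SKNMC at 50 nM, and medians -0.16, -0.23, -0.24 and -0.24. With members chosen on the other line's DMSO library, shares were 12.8%, 11.9% and 17.4% for the same comparisons and medians -0.16, -0.2, -0.32 and -0.32. These last 2 rules and the minimum of 0.1 FPKM admit members at or under 1 FPKM in DMSO, which cannot fall 2-fold after 1 is added. With the mean of 6 libraries, the number lowered was also smaller in A673 (38 and 36, against 42 and 39 by the main rule). In SKNMC it was larger (45 and 41, against 43 and 35). The part of either in the lower shares was not tested. Scaled by the 75th percentile of the 10216 genes under the rule, shares at 200 nM were 14.3% (A673) and 10.4% (SKNMC), the A673 step 2.2% and medians -0.34, -0.25, -0.27 and -0.09. Scaled by 77 ribosomal protein genes, shares were 32.4% (A673, 200 nM), 33.5% and 36.3% (SKNMC), and medians -0.63, -0.68, -0.7 and -0.8. With GENCODE lncRNA members alone, chosen after seeing the data, the share in A673 at 200 nM was 14.8% and the A673 step 2.61%.

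Set against coding genes under the same alternative, the lincRNA share at 50 nM was higher in 6 of 9 alternatives in A673 and 8 of 9 in SKNMC. Those 3 rules gave no excess in A673: 14.9% against 15% (mean of 6 libraries), 12.8% against 14.6% (other line's DMSO) and 6.33% against 13.6% (minimum 0.1 FPKM). In SKNMC they gave 17.6% against 15.3%, 17.4% against 15.6% and 9% against 14.2%. Leaving out those 3, the lincRNA share was higher at 50 nM in 6 of 6 in each line. All 6 keep members chosen on the DMSO values that the comparison uses. The part of that choice in the excess was therefore not tested by this count. With the same 6, the share at 200 nM was lower in 4 of 6 in A673 (lincRNA minus coding -11.3 to 14.3 percentage points) and 6 of 6 in SKNMC. In the step from 50 to 200 nM it was lower in 6 of 6 in each line. The scalings moved the median of all genes by 0.22 to 0.48 (75th percentile) and by -0.21 to -0.49 (ribosomal protein genes); 26 and 19 of 212 named values changed sign. Of the 68 values past 2-fold, 57 and 63 stayed past it and none changed sign. The cause was not tested.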
